A study of Mus musculus with 6 samples.

Results

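The genes described here are those of the ATF4 response together with the serine and one-carbon pathway that ATF4 drives. They were taken by name, in a list drawn up with earlier results of these data known. Of the 30 names, 29 were among the 18543 genes of the deposited count table and 1, Fgf21, was not among them. All 29 passed the filter on low counts, which left 14052 genes tested. Messenger RNA was measured in group 2 innate lymphoid cells (ILC2s) from lung, tissue lymphocytes that answer the epithelial alarmin IL-33 with type 2 cytokines. The libraries labelled Atg5-/- are called here KO 1, KO 2 and KO 3, and those labelled wild type are called WT 1, WT 2 and WT 3, by their labels throughout. Atg5 is a gene needed to lipidate LC3 in autophagosome formation. All libraries came from C57BL/6 mice aged 8 weeks, whose airways had received 0.5 µg of recombinant mouse IL-33 on 3 consecutive days before ILC2s were isolated on day 4, and all were made from 10 ng of RNA. The labels give no promoter or Cre for the deletion, no deleted exons, no sex, litter or sort gate, and do not say whether each library came from its own mouse. P-values therefore speak only of the spread among these 6 libraries, and that spread may be technical.

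ATF4 is a transcription factor whose messenger RNA is translated better when stress kinases phosphorylate eIF2α and general translation falls. It pairs with C/EBP factors on response elements of genes for amino acid synthesis and transport, for tRNA charging and for the feedback on the stress response itself. Serine made from glycolytic carbon feeds the one-carbon pathway, in which folate carries carbon units through a mitochondrial and a cytosolic branch to purine, thymidylate and methionine synthesis, and T cells raise both pathways when they are activated.

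Library totals were 28827545 to 33662979 estimated counts. Atg5 itself, whose check comes first in a knockout, was at 23.0, 25.6 and 52.2 CPM (counts scaled to the TMM library size) in KO 1, KO 2 and KO 3 as labelled, against 66.3, 71.8 and 21.8 CPM in WT 1, WT 2 and WT 3. The library labelled WT 3 held the lowest Atg5 level of the 6, and whether samples were exchanged cannot be told from these files, which bears on every KO over WT value. The labels are followed as given, with every result also computed without that library. Across genes its log2 CPM correlated at 0.991 with KO 1 and 0.990 with KO 2, against 0.946 with WT 1, while WT 1 and WT 2 correlated at 0.991. KO 3 stood apart from the others by less, at 0.979 to 0.980 with KO 1, KO 2 and WT 3. All 13 ILC2 markers were in the table, and 0 were called in either direction while all 6 libraries were kept (edgeR's quasi-likelihood test). Once WT 3 was set aside because of its own values, that test called 7 lower, 1 higher and 5 neither. Of all genes in that smaller fit, 16.1% were called lower and 17.7% higher. Gata3 was at 900.1, 925 and 927 CPM in libraries labelled KO, against 1559, 1533 and 964 CPM in those labelled WT, and Il13 was at 367, 367 and 286 CPM in libraries labelled KO, against 99.0, 117 and 355 CPM in those labelled WT. Of markers of other cells, those of T cells summed to 73.4 to 91.8 CPM in libraries labelled KO, against 197, 224 and 85.6 CPM in those labelled WT. Most of that sum was Lat, at 48.7 to 63.8 CPM in libraries labelled KO, against 155, 181 and 59.8 CPM in those labelled WT. Cd3g ran as Lat did, at 11.4 to 18.8 CPM in libraries labelled KO, against 35.3, 37.2 and 16.3 CPM in those labelled WT. Cd3e was at most 4.41 CPM, and Cd28 ran the other way, at 3.48 to 5.33 CPM in libraries labelled KO, against 1.54, 1.28 and 3.38 CPM in those labelled WT. Pecam1, which leads the endothelial list, was at 92.0 to 131 CPM in libraries labelled KO, against 10.4, 8.54 and 93.1 CPM in those labelled WT, while Cdh5 and Kdr are not listed. Epcam was at 8.90 to 13.7 CPM in libraries labelled KO and at 57.4, 52.3 and 14.3 CPM in those labelled WT, while Sftpc and Sftpb are not listed. Scgb1a1, an airway epithelial marker, was at 15.0 CPM in KO 2 and at 0 to 0.232 CPM in the other libraries. Ighm was at 194 CPM in KO 3 and at 7.82 to 17.3 CPM in the other libraries, while Ms4a1 and Pax5 are not listed. Lat, Cd3g, Epcam and Pecam1 separate WT 1 and WT 2 from the other libraries, as many of the genes below do. The part of these markers in the results was not tested. In bulk samples fewer cells of a type and less RNA per cell cannot be told apart.

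With the labels as given, no ATF4, serine or one-carbon gene passed the test. All 29 had a log2 difference above 0 in this fit, although that of Sesn2 (0.01) was below 0 when libraries were scaled by their totals, by upper quartiles or by DESeq2 size factors. Their median was 0.70, while the median of all genes tested was 0.02. Of the 29, 0 passed edgeR's quasi-likelihood test at a Benjamini-Hochberg adjusted p of 0.05, as did 0 of 14052 genes (0%), and 6 of the 29 and 2026 of all genes were under an unadjusted p of 0.05. DESeq2 called 0 of the 28 members to which it gave an adjusted p, where 0.119% of all genes were called higher and 2.44% lower. The 3 KO libraries lay above all 3 WT libraries for 3 members, Cebpg, Phgdh and Psph, and below them for 0, where 9.26% and 9.22% of all genes did so. For Cebpg the lowest KO library was at 73.1 CPM, against 73.0 CPM in the highest WT library, so the separation is within counting error. The same 2 levels were 703 and 699.8 CPM for Phgdh and 105 and 102 CPM for Psph, gaps also within counting error. Scaled by upper quartiles or by DESeq2 size factors, 1 member (Psph) separated.

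Without the library labelled WT 3, 23 of the 29 rose, 0 fell and 6 did not pass, which were Atf5, Ddit3, Nupr1, Jdp2, Stc2 and Sesn2. Leaving out any other single library, 0 members passed. WT 3 was set aside because of its values in these same data, which left WT 1 and WT 2. The adjusted p-values of the fit without it, here and below, take no account of that choice. In that fit 17.7% of 14743 genes were called higher and 16.1% lower, and the members' median log2 difference was 1.27, against 0.02 for all genes. The KO libraries lay above WT 1 and WT 2 for 25 members and below them for 0, where 30.9% and 29.9% of all genes did so. Without both libraries numbered 3, 23 members rose and 1 (Sesn2) fell, where 22.7% of genes were called higher and 22.7% lower. The library that decides the call is thus the one labelled WT 3, and its level for 29 of the 29 members was within 1.3 times the mean of KO 1 and KO 2. The median log2 level of WT 3 minus that mean was 0.08 for the members and 0.00 for all genes.

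**Figure D1:**
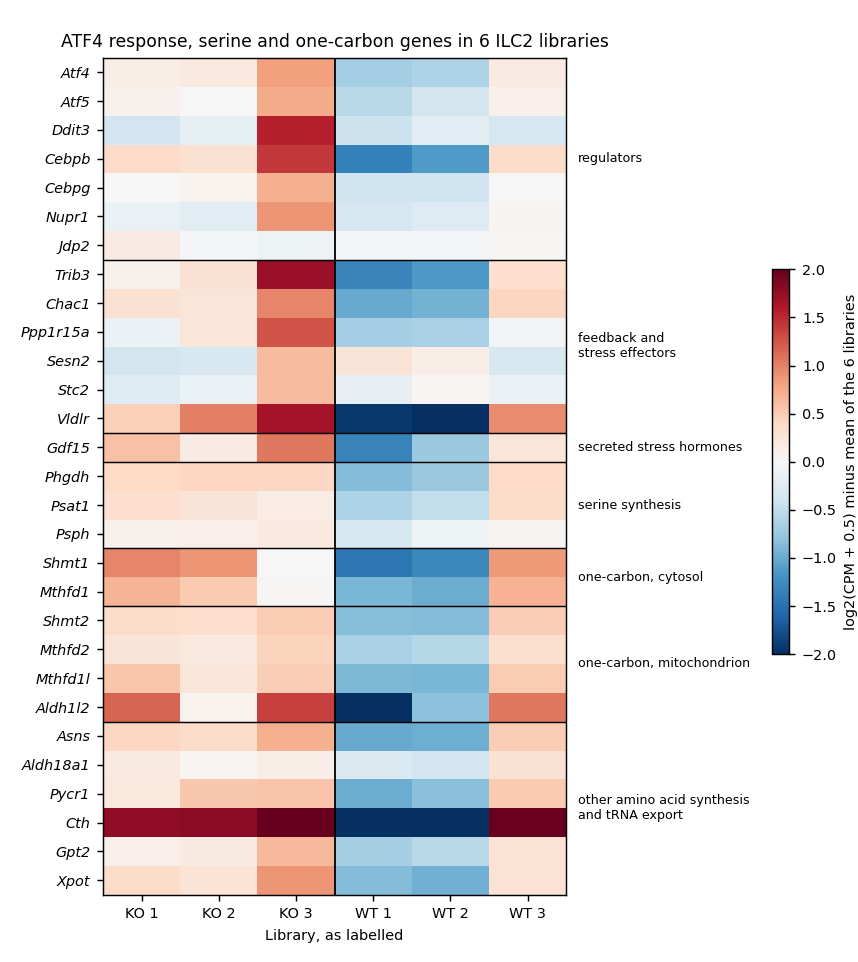
Log2 CPM of the 29 genes in each library, relative to each gene's mean over the 6 libraries, with KO libraries left of WT libraries and genes grouped by role (colours saturate at -2 and 2). The members' median is 0.25, 0.25 and 0.71 in KO 1, KO 2 and KO 3 and -0.85, -0.74 and 0.31 in WT 1, WT 2 and WT 3, so that the low values stand in WT 1 and WT 2.

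Summed over the 29 genes, the levels came to 5703, 5591 and 7142 CPM in KO 1, KO 2 and KO 3, against 2826, 2920 and 5906 CPM in WT 1, WT 2 and WT 3. WT 1 and WT 2 were the low pair, and WT 3 lay among the KO libraries. Per kilobase of merged exon the highest mean levels over all 6 libraries were those of Phgdh at 230.4, Shmt2 at 204, Asns at 181 and Atf4 at 175 CPM per kb, and the lowest were those of Aldh1l2 at 1.51, Gdf15 at 0.959 and Vldlr at 0.512 CPM per kb.

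Promoter sequence was looked up as a planned description of these genes, and any bearing of a match on their levels was not tested. RefSeq's table (GRCm38.p6, from 250 bases before to 50 bases after each start site) matched 27 of the 29 genes with 33 promoters, and Cth and Aldh1l2 were not among them. The core of the C/EBP-ATF response element, searched as TGATGNAA on both strands, was in the promoters of 7 of the 27, against 4.51% of 27025 genes and 3.97% of 32851 promoters. The list was named for the ATF4 response, so a share above that of all genes can follow from how it was drawn up. That share is therefore no evidence from the levels measured here. The 7 are printed here, since they carry the letters that ATF4 with a C/EBP partner is known to bind. Each is given in the direction of its gene with up to 30 bases on each side and at most 30 bases of the transcript, and capitals mark the match, which for Chac1, Trib3, Nupr1 and Vldlr lies on the strand opposite the gene and so reads as the reverse complement TTNCATCA. They are at chr2:119351019-119351086 (Chac1, plus strand), chr2:152344031-152344076 (Trib3, minus), chr6:7693195-7693262 (Asns, minus), chr7:126625543-126625610 (Nupr1, minus), chr11:120643814-120643881 (Pycr1, minus), chr12:85599353-85599420 (Jdp2, plus) and chr19:27216790-27216857 (Vldlr, plus).
Chac1: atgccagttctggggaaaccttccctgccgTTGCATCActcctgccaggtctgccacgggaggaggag
Trib3: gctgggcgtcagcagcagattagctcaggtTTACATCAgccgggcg
Asns: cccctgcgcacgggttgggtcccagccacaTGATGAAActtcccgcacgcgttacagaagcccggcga
Nupr1: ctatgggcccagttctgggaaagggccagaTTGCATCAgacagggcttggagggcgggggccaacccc
Pycr1: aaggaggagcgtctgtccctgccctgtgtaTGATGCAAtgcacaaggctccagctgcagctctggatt
Jdp2: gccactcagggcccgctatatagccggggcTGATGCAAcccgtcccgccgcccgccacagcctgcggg
Vldlr: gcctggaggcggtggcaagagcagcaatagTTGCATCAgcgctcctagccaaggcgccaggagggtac

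The match began 23 bases before the start site in Asns, 103 before it in Pycr1, 110 before it in Nupr1, 193 before it in Chac1 and at base 15 of the transcript in Trib3, and in Jdp2 and Vldlr it lay by the second of several listed start sites. Of the 7, Asns, Chac1, Trib3, Pycr1 and Vldlr rose in the fit without WT 3, and Nupr1 and Jdp2 did not pass. The E-box CACGTG, which reads the same on both strands and overlaps none of the response element matches, was in the promoters of Aldh18a1, Gdf15, Nupr1 and Xpot, 4 of the 27, against 8.09% of all genes. A match describes the letters in this window and not a bound site.

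Among the regulators, the transcription factors that start or shape the response, 3 of 7 rose without WT 3 (Atf4, Cebpb and Cebpg). Atf4 was at 423, 443 and 683 CPM in libraries labelled KO, against 240.2, 253 and 432 CPM in those labelled WT. Its level in WT 3 was that of KO 1 and KO 2, and KO 3 was the highest of the 6. The log2 difference was 0.74 ± 0.30 (SE) with all libraries (adjusted p = 0.342 by edgeR's quasi-likelihood test with Benjamini-Hochberg adjustment) and 1.07 ± 0.21 without WT 3 (adjusted p = 0.0078). Cebpb, a C/EBP factor that can pair with ATF4, was at 173, 163 and 353 CPM in libraries labelled KO, against 51.6, 59.7 and 170.2 CPM in those labelled WT. It differed by a log2 of 2.05 ± 0.35 without WT 3 (edgeR adjusted p = 0.00427) and 1.29 ± 0.53 with it (adjusted p = 0.343). Cebpg, another ATF4 partner of the same family, was at 73.1, 76.0 and 119 CPM in libraries labelled KO, against 54.7, 55.2 and 73.0 CPM in those labelled WT. It passed without WT 3 at a log2 difference of 0.71 (edgeR adjusted p = 0.0426). Atf5, a close relative of ATF4 whose messenger RNA is also under translational control, was at 8.38, 7.85 and 13.5 CPM in libraries labelled KO, against 5.18, 5.99 and 8.49 CPM in those labelled WT. It did not pass, and reads from it cannot be told apart from those of Il4i1 and Nup62 on the opposite strand if counting did not use strand.

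The other regulators were high in KO 3 or nowhere. Ddit3 encodes CHOP, a factor induced by ATF4 that is linked to cell death under lasting stress. It was at 39.9, 45.8 and 153 CPM in libraries labelled KO, against 38.4, 45.2 and 40.8 CPM in those labelled WT, so that KO 3 stood at 3.58 times the mean of KO 1 and KO 2 and the other 5 libraries overlapped. Its log2 difference was 0.94 ± 0.62 without WT 3 (edgeR adjusted p = 0.301) and 0.05 ± 0.13 without both libraries numbered 3 (adjusted p = 0.811). Mars and Gm4189 overlap it on the opposite strand. Nupr1, a small stress-induced nuclear protein, was at 56.3, 53.7 and 115 CPM in libraries labelled KO, against 49.3, 51.7 and 64.3 CPM in those labelled WT. Jdp2, a repressor of the AP-1 family, was at 101, 88.5 and 83.1 CPM in libraries labelled KO, against 87.2, 87.9 and 90.6 CPM in those labelled WT. Its log2 difference of 0.04 ± 0.13 with all libraries was among the smallest of the 29.

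**Figure D2:**
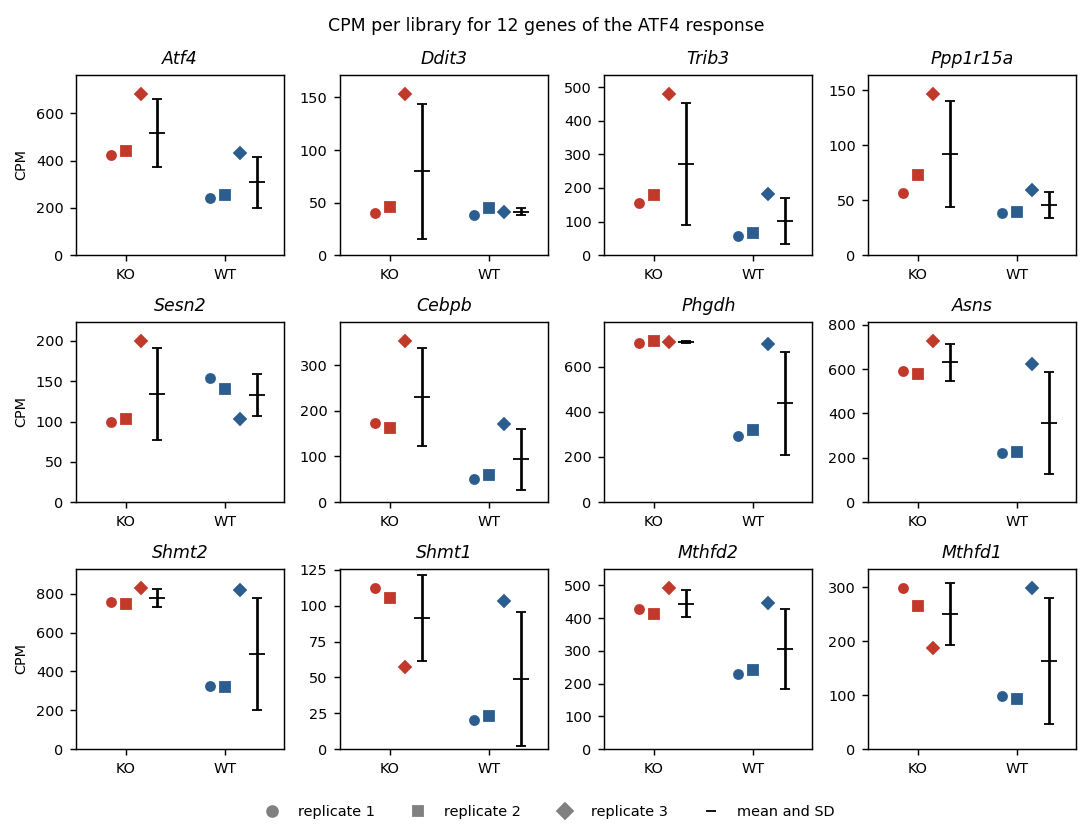
CPM of selected members in each library, with KO libraries left of WT libraries, points for libraries and black bars for the mean ± SD of each label (n = 3). Phgdh at 703, 714 and 709 CPM in libraries labelled KO, against 292, 320.2 and 699.8 CPM in those labelled WT, has its low values in WT 1 and WT 2, whereas Ddit3 is high in KO 3 alone at 153 CPM.

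The feedback and stress effectors are genes that ATF4 or CHOP switch on to limit or carry out the response, and 4 of the 6 rose without WT 3 (Trib3, Chac1, Ppp1r15a and Vldlr). Trib3, a pseudokinase that inhibits ATF4 and CHOP, was at 155, 179.8 and 479.7 CPM in libraries labelled KO, against 58.0, 65.5 and 182 CPM in those labelled WT. The KO 3 level was 2.87 times the mean of KO 1 and KO 2, and those and WT 3 formed an intermediate group. The log2 difference was 2.14 ± 0.54 without WT 3 (edgeR adjusted p = 0.0272), 1.45 ± 0.10 without KO 3 also (adjusted p = 3.7e-06) and 1.41 ± 0.60 with all libraries (adjusted p = 0.346). Chac1, an enzyme that degrades glutathione, was at 43.8, 42.0 and 70.1 CPM in libraries labelled KO, against 17.2, 18.1 and 47.5 CPM in those labelled WT. It rose without WT 3 by a log2 of 1.56 ± 0.25 (edgeR adjusted p = 0.00294). Ppp1r15a encodes GADD34, which brings a phosphatase to eIF2α and so restores translation. It was at 56.3, 72.7 and 147 CPM in libraries labelled KO, against 38.0, 38.8 and 59.0 CPM in those labelled WT, and rose without WT 3 by a log2 of 1.27 ± 0.38 (edgeR adjusted p = 0.0403). Vldlr, a lipoprotein receptor, was low throughout, at 4.74, 7.08 and 11.5 CPM in libraries labelled KO, against 0.492, 0.36 and 6.76 CPM in those labelled WT. In counts these were 137, 238 and 361 in libraries labelled KO, against 15, 11 and 204 in those labelled WT. The difference between WT 1 or WT 2 and the rest therefore exceeds counting error, and Vldlr rose without WT 3 by a log2 of 4.19 ± 0.52 (edgeR adjusted p = 0.00112).

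Sesn2 and Stc2 did not follow the other effectors. Sesn2 encodes a leucine-sensing inhibitor of mTORC1 and was at 99.5, 103 and 200.1 CPM in libraries labelled KO, against 154, 141 and 103 CPM in those labelled WT. KO 1, KO 2 and WT 3 lay below WT 1 and WT 2, and KO 3 lay above them. Its log2 difference was 0.01 ± 0.31 with all libraries and turned to -0.13 ± 0.30 without WT 3 (edgeR adjusted p = 0.775), and without both libraries numbered 3 it fell by 0.54 on the log2 scale (adjusted p = 0.000505). Stc2, a secreted glycoprotein, was at 36.4, 39.6 and 68.0 CPM in libraries labelled KO, against 38.9, 44.3 and 40.0 CPM in those labelled WT, which overlapped. Its log2 difference was 0.21 ± 0.27 without WT 3 (edgeR adjusted p = 0.599) and -0.12 ± 0.12 without KO 3 also (adjusted p = 0.457). Gdf15, a secreted hormone of cell stress, was near the detection limit at 2.46, 1.73 and 3.64 CPM in libraries labelled KO, against 0.295, 0.687 and 1.86 CPM in those labelled WT. It rose without WT 3 by a log2 of 2.40 ± 0.59 (edgeR adjusted p = 0.0184) on 71, 58 and 114 counts in libraries labelled KO, against 9 and 21 counts in WT 1 and WT 2.

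Serine synthesis from 3-phosphoglycerate takes the enzymes encoded by Phgdh, Psat1 and Psph in that order, and all 3 rose without WT 3. Phgdh, the first and committed step (chr3:98313170-98339990, minus strand), was at 703, 714 and 709 CPM in libraries labelled KO, against 292, 320.2 and 699.8 CPM in those labelled WT. The KO libraries averaged 708 ± 5.35 CPM and the WT libraries 437 ± 228 CPM (SD, n = 3 each), so nearly all of the spread lay within the WT label. Its log2 difference was 1.22 ± 0.09 without WT 3 (edgeR adjusted p = 0.000138) and 0.70 ± 0.34 with it (adjusted p = 0.357). Psat1, the transaminase of the next step, was at 568, 542 and 498 CPM in libraries labelled KO, against 295, 319 and 585 CPM in those labelled WT. It rose without WT 3 by a log2 of 0.81 ± 0.10 (edgeR adjusted p = 0.000901). Psph, the phosphatase that releases serine, changed least of the 3, with 105, 106 and 113 CPM in libraries labelled KO, against 78.7, 91.3 and 102 CPM in those labelled WT, and a log2 difference of 0.35 ± 0.10 without WT 3 (edgeR adjusted p = 0.0387). In KO 3 the levels of these 3 genes were 1.00, 0.897 and 1.07 times the mean of KO 1 and KO 2 for Phgdh, Psat1 and Psph, so that Psph was highest there by a small margin.

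In the mitochondrial branch, which takes the one-carbon unit from serine and releases formate, all 4 members rose without WT 3. Shmt2 splits serine to glycine in mitochondria (chr10:127517123-127522444, minus strand) and was at 757, 750.0 and 831 CPM in libraries labelled KO, against 325, 319 and 821 CPM in those labelled WT. It rose without WT 3 by a log2 of 1.28 ± 0.09 (edgeR adjusted p = 0.000133), and with all libraries the log2 difference was 0.67 ± 0.38 (adjusted p = 0.382). Mthfd2, the dehydrogenase and cyclohydrolase of this branch, was at 428, 413 and 493 CPM in libraries labelled KO, against 229.7, 243 and 448 CPM in those labelled WT, and rose by a log2 of 0.92 ± 0.11 without WT 3 (edgeR adjusted p = 0.000816). Mthfd1l, the synthetase that releases formate, was at 173, 140.0 and 165 CPM in libraries labelled KO, against 63.2, 62.5 and 168 CPM in those labelled WT, and rose by a log2 of 1.35 ± 0.12 (edgeR adjusted p = 0.000294). Aldh1l2, which oxidises the carbon unit to CO2 with gain of NADPH, varied most among these 4 relative to its mean, within either label. It was at 17.8, 8.12 and 20.6 CPM in libraries labelled KO, against 0.656, 4.16 and 16.5 CPM in those labelled WT, and rose without WT 3 by a log2 of 2.69 ± 0.75 (edgeR adjusted p = 0.0299). D10Wsu102e overlaps it on the opposite strand.

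The cytosolic branch, which spends formate on biosynthesis, showed an additional difference inside the KO label. Shmt1, the cytosolic counterpart of Shmt2, was at 112, 105 and 57.2 CPM in libraries labelled KO, against 20.6, 23.0 and 103 CPM in those labelled WT. KO 3 lay at 0.525 times the mean of KO 1 and KO 2 but still above WT 1 and WT 2, and WT 3 lay with KO 1 and KO 2. The gene rose without WT 3 by a log2 of 2.08 ± 0.30 (edgeR adjusted p = 0.00191), and 2.33 ± 0.11 without KO 3 also (adjusted p = 3.1e-07). Mthfd1, which carries 3 folate activities of the cytosol in 1 protein, was at 298, 265 and 187 CPM in libraries labelled KO, against 98.0, 92.9 and 299 CPM in those labelled WT. Its KO 3 level was 0.665 times the mean of KO 1 and KO 2, and it rose without WT 3 by a log2 of 1.40 ± 0.19 (edgeR adjusted p = 0.00176). Shmt1 and Mthfd1 were the 2 members for which KO 3 lay below the mean of KO 1 and KO 2 by more than 1.5 times. As levels per kilobase of exon, the ratio of Shmt1 to Shmt2 was 0.119, 0.112 and 0.0551 in libraries labelled KO, against 0.0507, 0.0578 and 0.100 in those labelled WT. The same ratio of Mthfd1 to Mthfd2 was 0.547, 0.504 and 0.298 in libraries labelled KO, against 0.335, 0.300 and 0.524 in those labelled WT. By both ratios KO 3 lay with WT 1 and WT 2, and WT 3 with KO 1 and KO 2, although the levels of all 4 genes were higher in KO 3 than in WT 1 and WT 2. Smcr8 overlaps Shmt1 and Ndufa4l2 overlaps Shmt2 on the opposite strand.

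The remaining ATF4 targets make amino acids other than serine or export tRNA, and all 6 rose without WT 3. Cth encodes cystathionine gamma-lyase, which makes cysteine from cystathionine (chr3:157894248-157925077, minus strand). It was at 47.3, 48.3 and 77.6 CPM in libraries labelled KO, against 0.393, 0.327 and 54.8 CPM in those labelled WT. In counts these were 1365, 1625 and 2431 in libraries labelled KO, against 12, 10 and 1653 in those labelled WT, and the 95% exact Poisson interval reached at most 0.687 CPM in WT 1 and 0.602 CPM in WT 2, for counting error only. WT 1 and WT 2 were thus nearly without Cth, and the other 4 libraries held it at 47.3 CPM or more. The log2 difference was 7.31 ± 0.38 without WT 3 (edgeR adjusted p = 4.54e-05) and 1.64 ± 1.58 with it (adjusted p = 0.573). By size this ranked 39 among 14743 genes, of which 99 had a log2 difference of at least 5 and 79 one of at most -5.

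Asns, asparagine synthetase, was at 592, 576 and 727 CPM in libraries labelled KO, against 222, 226 and 624 CPM in those labelled WT, and rose without WT 3 by a log2 of 1.5 ± 0.12 (edgeR adjusted p = 0.00024). Its promoter carries the TGATGAAA printed above, 23 bases before the start site. Proline is made by the enzymes of Aldh18a1 and Pycr1. Aldh18a1 was at 297, 270.0 and 289 CPM in libraries labelled KO, against 216, 201 and 325 CPM in those labelled WT, and its log2 difference of 0.46 ± 0.09 without WT 3 was the smallest of the 6 (edgeR adjusted p = 0.00739). Pycr1 was at 35.9, 45.5 and 46.2 CPM in libraries labelled KO, against 15.3, 17.1 and 44.6 CPM in those labelled WT, and rose by a log2 of 1.40 ± 0.17 (edgeR adjusted p = 0.0009). Gpt2, the mitochondrial alanine transaminase, was at 60.0, 63.6 and 87.8 CPM in libraries labelled KO, against 35.3, 38.1 and 68.9 CPM in those labelled WT. Xpot, the nuclear export receptor of tRNA, was at 238, 222 and 342 CPM in libraries labelled KO, against 101, 94.6 and 227 CPM in those labelled WT. The log2 differences without WT 3 were 0.95 ± 0.18 for Gpt2 (edgeR adjusted p = 0.00708) and 1.45 ± 0.19 for Xpot (edgeR adjusted p = 0.00147).

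**Figure D3:**
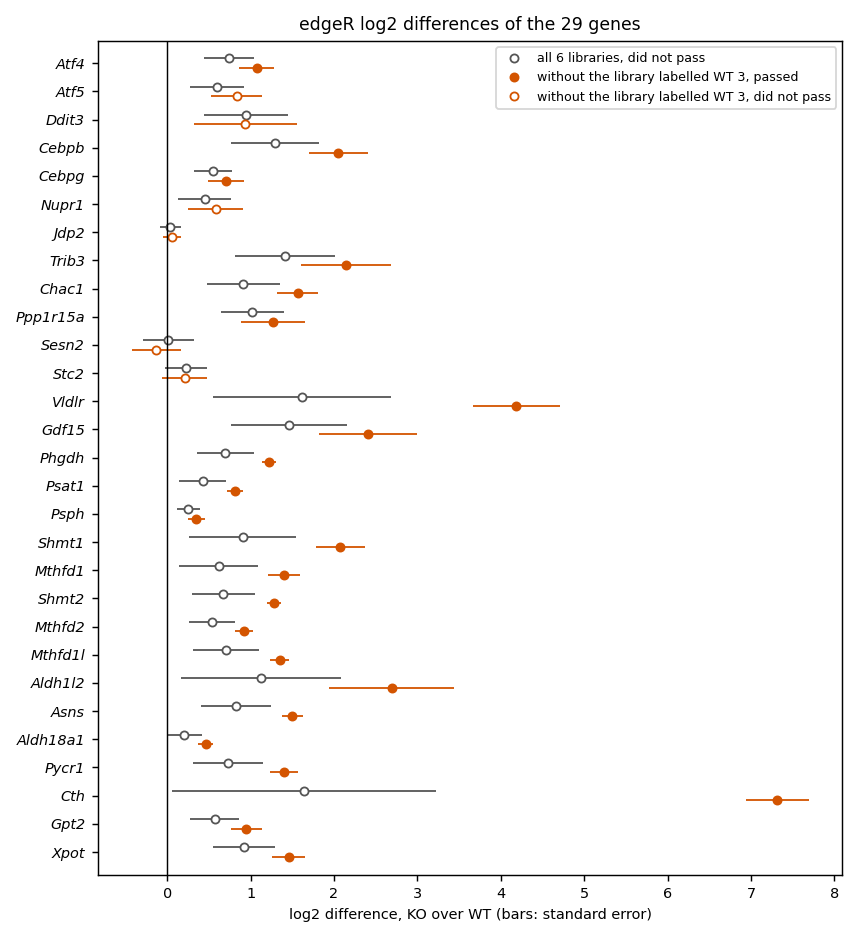
Log2 difference of KO over WT for each member (points, filled where the test was passed, with bars of 1 SE) with all 6 libraries and without the library labelled WT 3, ordered by role. With all libraries the median is 0.70 and 0 of 29 pass, and without WT 3 the median is 1.27 and 23 of 29 pass.

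The KO libraries were not uniform. KO 3 held the highest CPM of the 6 libraries for 22 of the 29 genes, against 22.0% of all genes tested. It exceeded the mean of KO 1 and KO 2 by more than 1.5 times for 15 of the 29. The share of all genes beyond that limit was not computed. By role, the median log2 level of KO 3 minus the mean of KO 1 and KO 2 was 0.70 for the regulators and 0.96 for the feedback and stress effectors. The same difference was 0.00 for serine synthesis, 0.18 for the mitochondrial branch, 0.41 for the other amino acid genes and -0.75 for the cytosolic branch, and 0.00 for all genes. The roles overlapped, since Aldh1l2 (0.75), Cth (0.69) and Xpot (0.57) differed about as much as Atf4 (0.66) and Cebpg (0.67), and Jdp2 was at -0.18. A difference between roles was not tested. KO 3 also held the Ighm level of 194 CPM given above and an Atg5 level 2.15 times the mean of KO 1 and KO 2. As levels per kilobase of exon, the ratio of Ddit3 to Atf4 was 0.130, 0.143 and 0.309 in libraries labelled KO, against 0.220, 0.245 and 0.130 in those labelled WT, and that of Trib3 to Atf4 was 0.406, 0.451 and 0.779 in libraries labelled KO, against 0.268, 0.287 and 0.468 in those labelled WT. The ratio of Phgdh to Atf4 ran the other way in KO 3, with 1.58, 1.53 and 0.984 in libraries labelled KO, against 1.15, 1.20 and 1.54 in those labelled WT. With 1 library there is no replicate for what sets KO 3 apart.

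**Figure D4:**
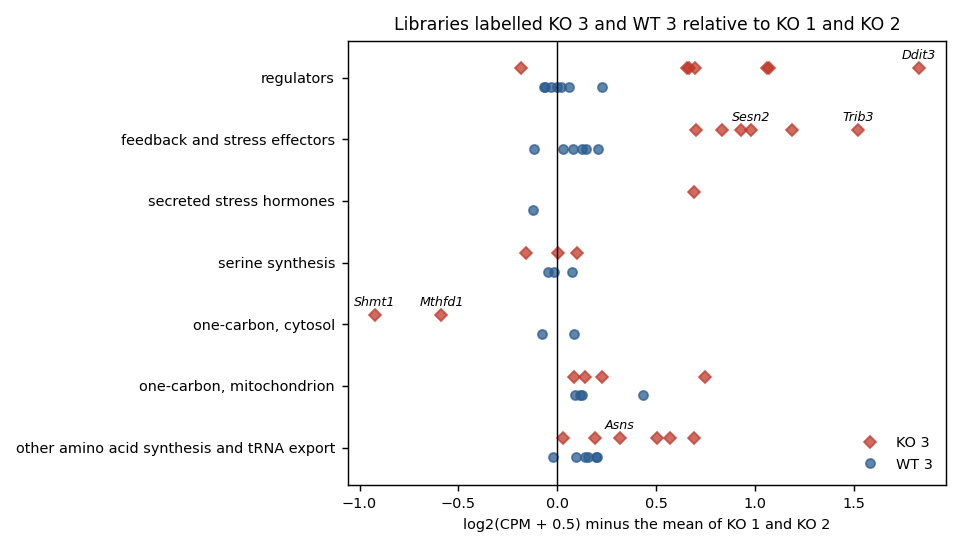
For each member, grouped by role, the log2 level of KO 3 and of WT 3, each minus the mean of KO 1 and KO 2. The members' median is 0.66 for KO 3 and 0.08 for WT 3, with Ddit3 and Trib3 among the highest in KO 3 and Shmt1 and Mthfd1 below 0.

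Other genes of the pathway were taken from lists by name. In each of these 7 lists 0 genes passed with all 6 libraries by edgeR's quasi-likelihood test, and the counts that follow are from the fit without WT 3, in which 17.7% of all genes were called higher and 16.1% lower. Upstream of ATF4, of 17 genes for eIF2α kinases, eIF2 and eIF2B subunits and their controls, 9 rose, 3 fell and 5 did not pass, with a median log2 difference of 0.41. Eif2s2, a subunit of eIF2, was at 505, 513 and 513 CPM in libraries labelled KO, against 241, 248 and 498 CPM in those labelled WT, and Eif2b4, a subunit of its exchange factor, rose by a log2 of 0.57 ± 0.10 (edgeR adjusted p = 0.00565). Of the kinases, those named by the rule went the other way, while Eif2ak1 and Eif2ak4 did not pass (edgeR adjusted p = 0.606 and 0.387). Eif2ak3, which encodes PERK, the kinase of the endoplasmic reticulum, was at 24.8, 25.7 and 38.8 CPM in libraries labelled KO, against 54.6, 63.6 and 26.8 CPM in those labelled WT, and fell by 0.98 on the log2 scale (edgeR adjusted p = 0.0107). Eif2ak2, which encodes the RNA-sensing kinase PKR, was at 9.70, 9.88 and 6.67 CPM in libraries labelled KO, against 22.2, 18.6 and 8.12 CPM in those labelled WT, and fell by 1.21 on the log2 scale (edgeR adjusted p = 0.00675).

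Of 20 further ATF4 and CHOP targets and partners, 9 rose, 1 fell and 10 did not pass, with a median of 0.72. Without both libraries numbered 3, 11 of the 19 tested rose and 6 fell, with a median of 0.46. In that fit 22.7% of all genes were called higher and 22.7% lower. The levels of this list summed to 6382, 5954 and 9761 CPM in libraries labelled KO, against 9056, 9252 and 6513 CPM in those labelled WT. By that sum WT 1 and WT 2 were not the low pair. Slc7a11, the cystine importer, was at 18.6, 22.4 and 44.6 CPM in libraries labelled KO, against 4.95, 6.09 and 19.8 CPM in those labelled WT, and rose by a log2 of 2.38 ± 0.41 (edgeR adjusted p = 0.0044). Like Trib3 it was highest in KO 3, as were 15 of these 20 genes. Eif4ebp1, a brake on cap-dependent translation, rose by a log2 of 1.03 ± 0.15 (edgeR adjusted p = 0.00184). The relatives of Trib3 were low, with Trib1 at 1.53 to 3.22 CPM in libraries labelled KO, against 7.67, 5.50 and 2.32 CPM in those labelled WT, and it fell by 1.46 on the log2 scale (edgeR adjusted p = 0.023). Trib2 was at 0.762 to 3.06 CPM in libraries labelled KO, against 3.68 to 4.94 CPM in those labelled WT, and did not pass (edgeR adjusted p = 0.107).

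Of the 20 aminoacyl-tRNA synthetases of the cytosol, which charge tRNA with amino acids and are known ATF4 targets in part, 18 rose, 0 fell and 2 did not pass, with a median of 0.82. Gars, for glycine, was at 687, 677 and 696 CPM in libraries labelled KO, against 348, 354 and 649.6 CPM in those labelled WT, and Sars, for serine, was at 508, 519 and 604 CPM in libraries labelled KO, against 331, 347 and 498 CPM in those labelled WT. The low libraries were again WT 1 and WT 2, and 19 of the 20 genes were higher in all 4 other libraries than in that pair, where 29.6% of all genes lay above it and 28.2% below it. Qars, for glutamine, was at 73.7 to 82.1 CPM in libraries labelled KO, against 72.7 to 84.2 CPM in those labelled WT, and did not pass.

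Purine and thymidylate synthesis, which use one-carbon units, were represented by 13 genes, of which 10 rose, 1 fell and 2 did not pass, with a median of 0.88. Purine synthesis takes up these units at the steps of Gart and Atic. Atic, which places the last formyl group in purine synthesis, was at 68.0, 70.1 and 57.7 CPM in libraries labelled KO, against 28.8, 27.8 and 64.8 CPM in those labelled WT, and rose by a log2 of 1.21 ± 0.13 (edgeR adjusted p = 0.000616). Gmps, which makes GMP, rose by a log2 of 0.45 ± 0.10 (edgeR adjusted p = 0.0106). The exception was Adssl1, the muscle form of adenylosuccinate synthase, at 1.52 to 2.08 CPM in libraries labelled KO, against 6.62, 4.45 and 2.55 CPM in those labelled WT, which fell by 1.58 on the log2 scale (edgeR adjusted p = 0.0104). Prps2, which makes the ribose donor PRPP, did not pass (edgeR adjusted p = 0.416). None of the 13 was highest in KO 3, and their median in KO 3 lay 0.36 below the mean of KO 1 and KO 2 on the log2 scale, on the same side as Shmt1 and Mthfd1.

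The other folate and methionine cycle genes gave 7 that rose, 2 that fell and 12 that did not pass of 21 tested, with a median of 0.21. Ahcy, which hydrolyses S-adenosylhomocysteine, was at 125, 117 and 117 CPM in libraries labelled KO, against 72.3, 72.5 and 112 CPM in those labelled WT, and rose by a log2 of 0.73 ± 0.09 (edgeR adjusted p = 0.00107). Fpgs, which adds glutamate to folate and keeps it in the cell, rose by a log2 of 0.79 ± 0.11 (edgeR adjusted p = 0.00202). Mthfs, a folate salvage enzyme, fell by 0.91 on the log2 scale (edgeR adjusted p = 0.0231). Mthfd2l, the paralogue of Mthfd2, was at 11.3, 9.70 and 7.44 CPM in libraries labelled KO, against 14.3, 14.7 and 11.1 CPM in those labelled WT, the opposite order to Mthfd2, and did not pass (edgeR adjusted p = 0.0825).

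Proline, glutamate, cysteine and glutathione synthesis was mixed, with 6 of 16 genes that rose, 4 that fell and 6 that did not pass. Gclm, the modifier subunit of glutamate-cysteine ligase, was at 295, 299 and 457 CPM in libraries labelled KO, against 143, 156 and 287 CPM in those labelled WT, and rose by a log2 of 1.23 ± 0.20 (edgeR adjusted p = 0.00368). Glud1, the glutamate dehydrogenase, fell by 0.40 on the log2 scale (edgeR adjusted p = 0.0113). Gpt, the cytosolic counterpart of Gpt2, was at most 1.34 CPM in libraries labelled KO, against 3.11, 4.06 and 1.99 CPM in those labelled WT, and fell by 2.14 on the log2 scale (edgeR adjusted p = 0.0277).

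The ATF6 and IRE1 arms are the branches of the unfolded protein response that do not run through ATF4. Of their 17 genes 0 rose, 9 fell and 8 did not pass, with a median of -0.43, and without both libraries numbered 3 there were 13 that fell. Edem1, which sorts misfolded glycoproteins for degradation, was at 209, 186 and 217 CPM in libraries labelled KO, against 525, 571 and 218 CPM in those labelled WT, and fell by 1.42 on the log2 scale (edgeR adjusted p = 0.000133). Pdia4, a disulfide isomerase, fell by 0.65 on the log2 scale (edgeR adjusted p = 0.00115). Hspa5, the chaperone BiP, was at 2221, 2295 and 3217 CPM in libraries labelled KO, against 2228, 2460 and 2286 CPM in those labelled WT, so that it was high in KO 3 alone, as Ddit3 was, and it did not pass (edgeR adjusted p = 0.561). Atf6, the sensor of the arm, did not pass (edgeR adjusted p = 0.747). The median of these arms and that of the ATF4, serine and one-carbon genes (1.27) lay on opposite sides of 0 in this fit, and the difference between them was not tested.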

How the data were processed

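Sample titles gave the group and replicate number of each library. The authors deposited estimated counts per gene (47.1% to 48.5% per library whole within 1e-06) and a normalized signal. Each deposited signal is the estimated count, raised by 1 and divided by a factor of its library (31.2 to 36.0). CASAVA 1.8.2, STAR, Partek and mm10 appear in the submitters' processing notes without role or order. The use of strand, and the sharing of reads that match several genes, are not given in the sources. Another gene of the table overlaps 15 of the 29 members, 10 of them on the opposite strand, and their values are uncertain to that extent.

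The deposited estimated counts were rounded and tested for KO over WT with edgeR 4.0.16 in R 4.3.3 (TMM, filterByExpr, robust glmQLFit, glmQLFTest), adjusted by Benjamini-Hochberg over all genes tested, with a threshold of 0.05. CPM use the TMM library size, log2 levels add 0.5 CPM, and SE is the log2 difference over the square root of F. The fit was tested on simulated data. No simulated library was made to resemble the other label, so that check does not bear on WT 3. Alternatives were other scalings and filters, DESeq2 1.42.0, limma 3.58.1 (voom, and trend on the deposited signal), a replicate block, and fits leaving out each library or both libraries numbered 3. Exon lengths are from GENCODE vM21, in which 28 of the 29 members had the start and end of the deposited table. All members are named, and from each other list the 2 genes with the lowest p in each direction with all libraries, except that some results are not reported here. The members, lists and rules were chosen with earlier results of these data known.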

Additional observations from a re-analysis of the deposited data

How the results depend on the processing

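Over 16 alternatives to the reported fit, 26 of the 29 members kept the sign of their log2 difference in every one. With all 6 libraries DESeq2 called 15 genes higher and 308 lower, and no member. The members with all KO libraries above all WT libraries numbered 3 as reported and 1 (Psph) under DESeq2 size factors, upper-quartile scaling or no low-count filter. Leaving out 1 library in turn gave 0 to 2611 genes called higher and 0 to 2380 lower, 0 to 23 members called higher, a members' median of 0.45 to 1.27, and 1 to 25 members with KO above and 0 to 1 with KO below. The highest values of each, other than the 1 below, are those without the library labelled WT 3. Without both libraries numbered 3, 3251 genes were called higher and 3254 lower, 23 members were called higher and 1 lower, the median was 1.22, and 26 members lay above and 1 below.

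Sesn2, at a log2 difference of 0.01, turned to -0.0071 under DESeq2 size factors and the DESeq2 test, -0.017 under upper-quartile scaling, -0.024 with no filter or a filter of 2 CPM in 3 libraries, -0.00055 under library totals, -0.045 by limma-voom, -0.074 by limma-trend, -0.054 with the replicate block, and -0.54 without both libraries numbered 3. When 1 library was left out it ranged from -0.39 to 0.19, Stc2 from -0.11 to 0.39 and Jdp2 from -0.041 to 0.10, and Stc2 was at -0.12 without both libraries numbered 3. The cause of these changes was not tested. Deviations of same-numbered libraries from their group means correlated at -0.04, 0.02 and -0.01. Those values cannot tell whether the replicate number paired the samples, since WT 3 stood far from WT 1 and WT 2. With the replicate block 0 genes and 0 members were called, with a members' median of 0.83. The block lowered the SE of Trib3 from 0.60 to 0.15 and raised that of Shmt1 from 0.64 to 0.77. Gdf15, Vldlr and Aldh1l2 had the lowest levels per kilobase of exon. Counting error weighs most where counts were few, as in WT 1 and WT 2 for Gdf15 (9 and 21), Vldlr (15 and 11) and Cth (12 and 10), and in WT 1 for Aldh1l2 (20).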
